A study of Mus musculus with 6 samples.

Results

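RNA-sequencing of the left ventricle was analysed in 3 mice lacking NCoR1 in their cardiomyocytes (CMNKO) and 3 littermate controls (LC), and the core cardiac transcription factors were described across the 6 libraries. These genes were taken by name: Gata4, Gata6, Nkx2-5, Tbx5, Tbx20, Hand1, Hand2, Srf, Myocd and Irx4. Of these 10 genes, 9 were among the 17121 genes of the count table, and all 9 were among the 13040 genes with enough reads to be tested. Hand1 was not analysed here. All mice were 2 months old, on the C57BL/6 background and with no treatment in the labels, and each gave 1 library. Each mouse is called by its labelled number, which is 15, 25 or 26 for LC and 16, 17 or 18 for CMNKO. In CMNKO mice a floxed NCoR1 gene was deleted by a Cre recombinase under the α-MHC promoter, which is active in cardiomyocytes, so that the other cells of the ventricle kept the gene. Mice carrying this Cre without the floxed allele were not analysed here.

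Heart muscle cells are specified and maintained by a small set of DNA-binding proteins from the GATA, NK2, T-box, HAND and MADS-box families. They bind together at shared enhancers and drive the genes of the sarcomere, of conduction and of the natriuretic peptides. Several of them are also present in other cells of the heart, such as Gata6 and Myocd in vascular smooth muscle and Gata4, Tbx20 and Hand2 in cardiac fibroblasts. NCoR1 is a nuclear corepressor that carries histone deacetylases to DNA-bound factors, and the comparison asks whether its loss from cardiomyocytes was accompanied by another level of the core factors.

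No core factor passed the test in either direction. With p-values of the quasi-likelihood test of edgeR adjusted by Benjamini-Hochberg over all genes tested, 0 of the 9 genes had an adjusted p under 0.05, against 0.606% of all genes, and 1 of the 9, Tbx20, had an unadjusted p under 0.05, against 18.9% of all genes. DESeq2 and limma-voom gave the same counts of 0 and 1, against 2.81% and 0.721% of all genes with an adjusted p under 0.05 and 14.8% and 20.1% with an unadjusted one. The log2 fold changes ran from -0.34 to 0.24 with a median of 0.030, beside a median of 0.0012 over all genes. The 95% intervals of the fold, CMNKO over LC, differed from gene to gene. They were wide for Tbx5 (0.654 to 1.57), Myocd (0.570 to 1.14) and Nkx2-5 (0.764 to 1.56) and narrower for Gata4 (0.903 to 1.41) and Hand2 (0.947 to 1.47), and that of Tbx20 (0.637 to 0.979) did not include 1. The 3 CMNKO mice were all within the range of the LC mice in 6 of the 9 genes, against 20.9% of all genes. The groups did not overlap in 1 gene, Tbx20, against 23.6% of all genes. In bulk tissue fewer cells of a type and less RNA per cell cannot be told apart.

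**Figure D1:**
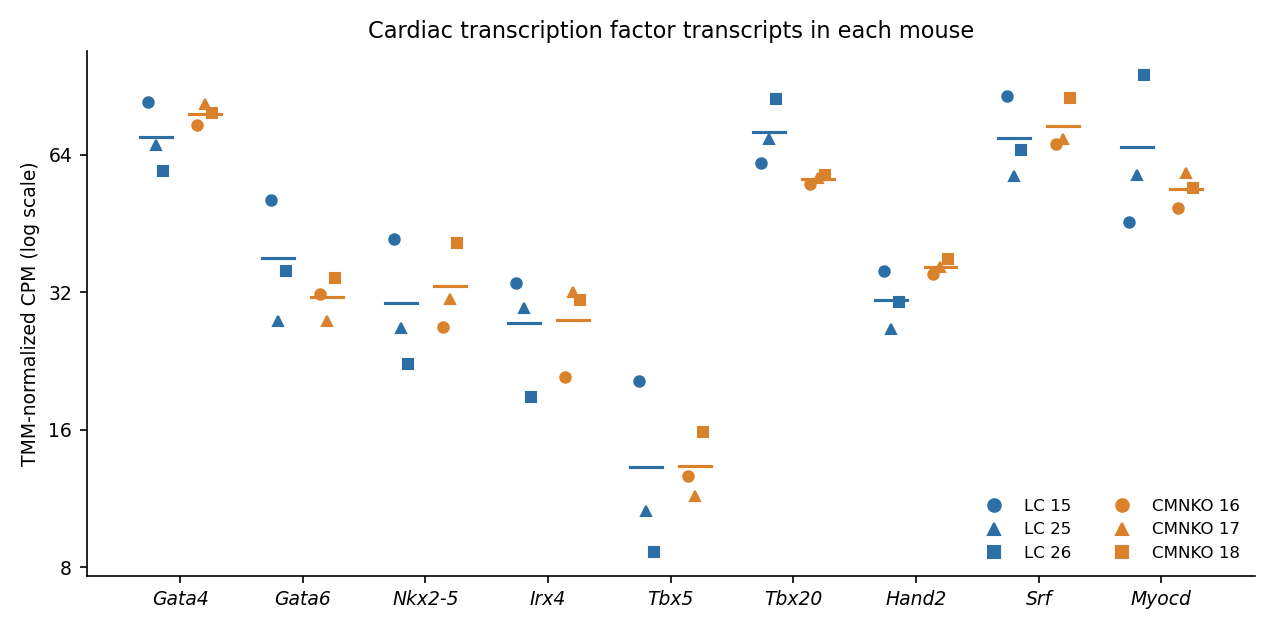
TMM-normalized CPM (counts scaled to a common library size) of the 9 core factors in each mouse on a log axis, with a symbol for each LC and CMNKO mouse and a line at the mean of each group. Only Tbx20 had all 3 CMNKO mice (55.4 to 57.9 CPM) outside the range of the LC mice (61.3 to 84.9 CPM).

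The libraries held 6319488 to 8752609 counts, of which 2319 to 3470 fell on the core factors. Ncor1 itself was at 90.7 to 111 CPM in LC mice and at 42.4 to 51.3 CPM after knockout, which is a difference of -1.07 ± 0.13 on the log2 scale (SE, n = 3 per group) with an adjusted p of 0.00845 by edgeR's quasi-likelihood test. Without CMNKO 16, 17 or 18 the adjusted p of Ncor1 in edgeR was 0.0862, 0.0759 and 0.0536, while the difference itself was -1.11, -1.12 and -0.99. LC 25 and LC 26 stood apart from the other 4 libraries. A principal component carrying 48.7% of the variance separated them, and mitochondrially encoded genes took 34.9% and 31.5% of their counts against 25.6% to 26.9% elsewhere. The library numbers in their labels fall in a run apart from those of the other 4, and this grouping is called the library series here. The labels do not call this series a batch, and with LC 15 left out it coincides with genotype and the 2 cannot be told apart. Of the markers of the labelled tissue, 6 of 6 cardiomyocyte genes summed to 45414 to 60078 CPM in LC and 50325 to 55640 CPM in CMNKO mice, and the 2 atrial genes with a row in the table summed to at most 5.47 CPM in any mouse. Singly, 3 of the 6 cardiomyocyte genes were higher and 3 lower on average in CMNKO mice, and 0 passed the test. The groups did not overlap in 3 of them, against 23.6% of all genes.

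Gata4, a zinc-finger factor of early heart formation and of the hypertrophic response, was at 83.5, 67.3 and 58.9 CPM in LC 15, LC 25 and LC 26. In CMNKO 16, 17 and 18 its level was 74.5, 82.7 and 78.8 CPM. All CMNKO values were within the LC range, with LC 15 the highest of the 6 mice. The log2 fold change was 0.17 ± 0.15 (SE, n = 3 per group), with an adjusted p of 0.526 by edgeR's quasi-likelihood test. Gata6, its relative with overlapping functions in the myocardium, was at 50.9, 27.7 and 35.7 CPM in the LC mice and at 31.8, 27.7 and 34.4 CPM in the CMNKO mice in the same order. LC 15 alone stood high, and the groups overlapped. The log2 fold change of Gata6 was -0.28 ± 0.20 (SE, n = 3 per group), with an adjusted p of 0.457 in the same edgeR fit, and without LC 15 it was -0.024.

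Nkx2-5, the homeodomain factor of the NK2 family on which the conduction system and ventricular growth depend, was at 41.8, 26.7 and 22.3 CPM in LC 15, LC 25 and LC 26. Its CMNKO levels were 26.9, 30.9 and 41.1 CPM. The groups spanned nearly the same range, and the log2 fold change was 0.12 ± 0.23 (SE, n = 3 per group; adjusted p = 0.791, edgeR). Irx4, the Iroquois homeodomain factor that marks ventricular as opposed to atrial myocardium, was at 33.5, 29.6 and 18.9 CPM in LC and at 20.9, 32.0 and 30.8 CPM in CMNKO mice. LC 26 and CMNKO 16 were low and the other 4 mice lay between 29.6 and 33.5 CPM. The difference in Irx4 was 0.030 ± 0.23 on the log2 scale (SE, n = 3 per group; adjusted p = 0.951, edgeR).

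Among the T-box factors, Tbx5, which acts together with Gata4 and Nkx2-5 and is mutated in Holt-Oram syndrome in humans, was the most variable of the 9 genes within genotypes and the least abundant. It was at 20.4, 10.6 and 8.65 CPM in LC and at 12.7, 11.5 and 15.8 CPM in CMNKO mice, from 66 to 131 counts per library. LC 15 was well above the other 5 mice, and the log2 fold change was 0.018 ± 0.29 (SE, n = 3 per group; adjusted p = 0.979, edgeR). Tbx20, which maintains the adult cardiomyocyte and can act as a repressor, was at 61.3, 69.2 and 84.9 CPM in LC 15, LC 25 and LC 26. In CMNKO mice its level was 55.4, 57.0 and 57.9 CPM. The CMNKO mice lay close together and below every LC mouse, with LC 15 the nearest of the LC mice. The log2 fold change was -0.34 ± 0.14 (SE, n = 3 per group), with an unadjusted p of 0.0340 and an adjusted p of 0.229 by edgeR's quasi-likelihood test. With the library series as a term the difference in Tbx20 was -0.11, and without LC 15 it was -0.45 with an adjusted p of 0.0247 by edgeR, where genotype and library series coincide and 19.4% of all genes were called.

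Tbx20 was the core factor with the smallest p. The 3 genes whose profile over the 6 libraries was nearest to its own, by the root mean square difference of centred log2 CPM, were Mrpl9 at 0.027, Tmem222 at 0.027 and Cox14 at 0.030, against a median of 0.310 over all genes. Mrpl9 encodes a mitochondrial ribosomal protein and Cox14 an assembly factor of cytochrome c oxidase. The 3 genes were picked for this likeness, so their distances below the median and their shared pattern follow from the choice. Like Tbx20, the 3 genes were highest in LC 26 and near 1 level in the CMNKO mice. Whether they share a control with Tbx20 was not tested.

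Hand2, a basic helix-loop-helix factor needed for the right ventricle in the mouse embryo, was at 35.6, 26.5 and 30.4 CPM in LC 15, LC 25 and LC 26, and at 35.0, 36.3 and 37.8 CPM in the CMNKO mice. LC 15 was within the range of the CMNKO mice and the other LC mice were below it. The log2 fold change was 0.24 ± 0.14 (SE, n = 3 per group; adjusted p = 0.379, edgeR).

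Srf, the MADS-box factor that binds the CArG box, was at 85.9, 57.6 and 65.7 CPM in LC 15, LC 25 and LC 26 and at 67.7, 69.4 and 85.0 CPM in CMNKO 16, 17 and 18. The groups overlapped, with LC 15 and CMNKO 18 high and LC 25 the lowest. Its log2 fold change was 0.086 ± 0.16 (SE, n = 3 per group; adjusted p = 0.795, edgeR). Myocd encodes myocardin, the coactivator that Srf recruits in cardiac and smooth muscle. It was at 45.7, 57.9 and 95.8 CPM in LC and at 48.9, 58.4 and 54.1 CPM in CMNKO mice. LC 26 was far above the other 5 mice, which lay between 45.7 and 58.4 CPM, and the log2 fold change was -0.31 ± 0.23 (SE, n = 3 per group; adjusted p = 0.466, edgeR).

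**Figure D2:**
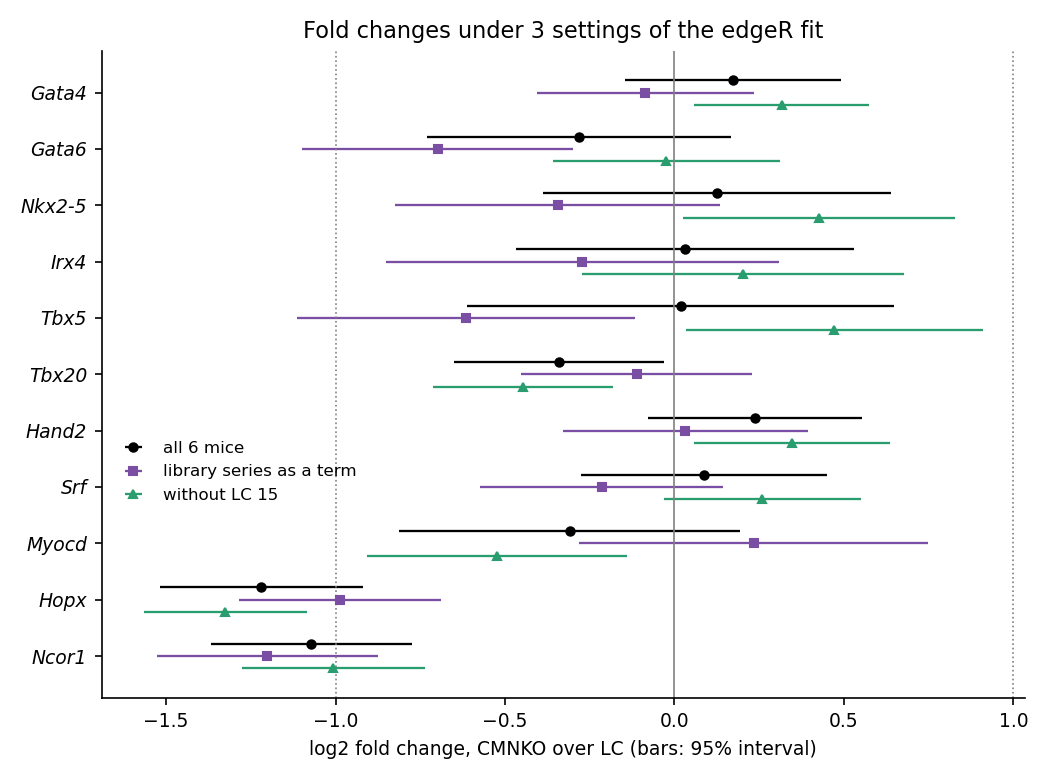
Log2 fold change of each core factor, CMNKO over LC, with its 95% interval, from all 6 libraries, with the library series as a term and without LC 15. Hopx, a cofactor, and Ncor1 are shown beside the core factors. Using all 6 libraries the core factors lie between -0.34 (Tbx20) and 0.24 (Hand2). With the series term Gata6 (-0.70) and Tbx5 (-0.62) lie lowest among the core factors.

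The control mice were more spread in these genes than the CMNKO mice. Over the 9 genes the SD of log2 CPM was larger in LC than in CMNKO mice in 9, as it was in 69% of all genes. The LC SD was above the median of all genes (0.243) in 7 of the 9, and the CMNKO SD above its median (0.164) in 4. Among the 3 LC mice LC 15 was at an end of the range for every factor, as it was for most of all genes. In Tbx20, Myocd and Irx4, however, LC 25 was nearer to LC 15 than to LC 26. LC 15 was above LC 25 and LC 26 in 7 of the 9, against 38.5% of all genes, and below both in the other 2, Tbx20 and Myocd, against 38.9%. The level in LC 25 and LC 26 over that in LC 15 ran from 0.472 in Tbx5 to 1.68 in Myocd, with a median log2 ratio of -0.47 over the 9 genes and 0.017 over all genes. These values are a description of 3 libraries without a test. With the library series as a term, which leaves LC 15 as the only LC mouse of its series, 0 of the 9 were called by edgeR, against 0.169% of all genes, and 2 had an unadjusted p under 0.05, against 7.57% of all genes. These were Gata6 (-0.70, 95% interval of the fold 0.467 to 0.813) and Tbx5 (-0.62, 0.462 to 0.922). The median over the 9 was then -0.22. What part of these differences belongs to the series and what part to the mice was not tested.

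For a comparison of levels between genes, CPM were divided by transcript length in kilobases. In LC mice the order was Srf (26.7 ± 5.58 CPM per kb, SD, n = 3), Gata4 (20.5 ± 3.68), Nkx2-5 (19.8 ± 6.71), Hand2 (13.1 ± 1.92), Myocd (13.0 ± 5.11), Gata6 (11.8 ± 3.64), Irx4 (10.6 ± 2.93), Tbx20 (7.90 ± 1.32) and Tbx5 (3.36 ± 1.60). The ranges of mean ± SD of neighbours in this order overlapped, except those of Tbx20 and Tbx5. The order depended on the length that was used. Per kilobase of coding sequence Tbx20, with the longest transcript (9.091 kb against a coding length of 1.335 kb), had the highest mean at 53.8 ± 9.02, which Gata4 (52.7 ± 9.43), Hand2 (47.4 ± 6.95) and Srf (46.1 ± 9.66) overlapped, and Tbx5 kept the lowest at 8.52 ± 4.06. In CMNKO mice Srf and Gata4 were again the highest per kilobase of transcript and Tbx5 the lowest.

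**Figure D3:**
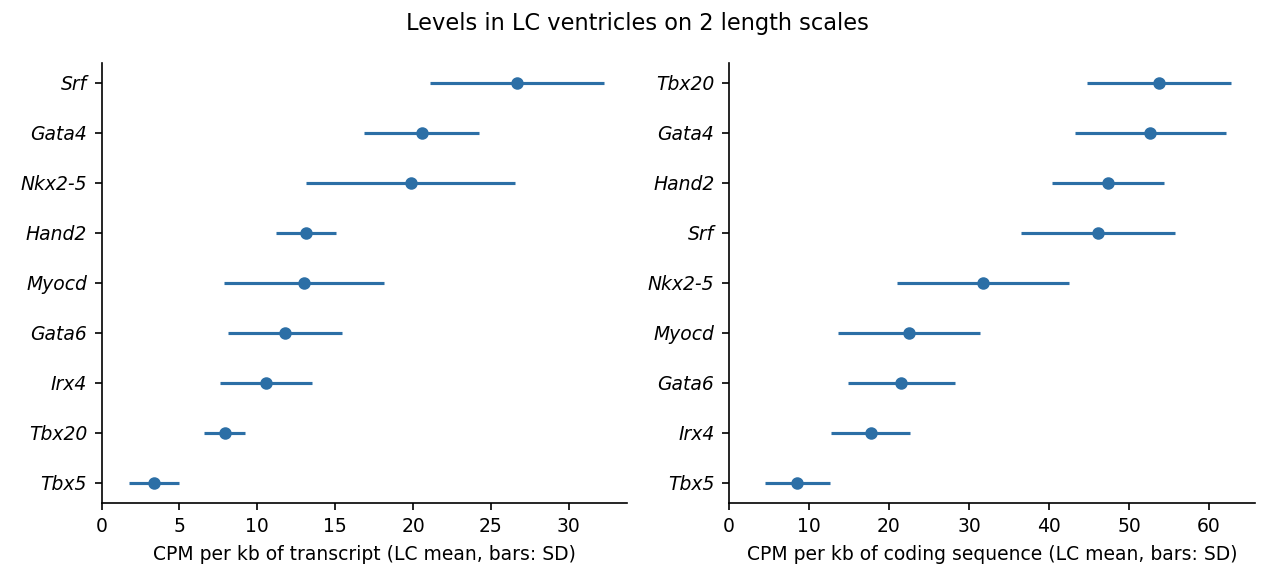
Level of each core factor in LC mice, in CPM per kilobase of transcript and of coding sequence, with points for the mean and bars for the SD (n = 3 mice). Tbx5 was the lowest on both length scales, and Tbx20 moved from next to lowest to a top group with Gata4, Hand2 and Srf, whose SDs overlap.

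Ratios between partners within a library do not depend on its scaling. Gata4 over Gata6 was 1.64, 2.43 and 1.65 in LC mice and 2.34, 2.99 and 2.29 in CMNKO mice, so that the groups overlapped at LC 25. Srf over Myocd was 1.88, 0.994 and 0.685 in LC 15, LC 25 and LC 26 and lay between 1.19 and 1.57 in CMNKO mice. Tbx20 over Tbx5 ran from 3 in LC 15 to 9.82 in LC 26 and from 3.66 to 4.98 in CMNKO mice, and Nkx2-5 over Irx4 from 0.902 to 1.33 over all mice. The differences in mean log2 ratio, CMNKO minus LC, were 0.43, 0.34, -0.42 and 0.11, with adjusted p of 0.6 each by two-sided exact permutation tests over the 4 pairs, where 3 against 3 mice cannot give an unadjusted p below 0.1. Single LC mice decided the size of the differences for Srf over Myocd and for Tbx20 over Tbx5. Without LC 26 the difference was 0.0053 for Srf over Myocd and -0.039 for Tbx20 over Tbx5, and without LC 15 it was 0.73 and -0.89. For Nkx2-5 over Irx4 it was -0.035 without LC 25. The difference for Gata4 over Gata6 kept its sign, at 0.33, 0.62 and 0.34 without LC 15, LC 25 and LC 26. Without CMNKO 16, 17 or 18 it was 0.48, 0.31 and 0.50.

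The cofactors of the core factors were examined next, 21 genes that bind or modify them. Of the 21, 0 rose and 1 fell, with a median log2 fold change of 0.16, against 0.268% and 0.337% of all genes. The gene that fell was Hopx, a homeodomain protein that does not bind DNA itself and that in the mouse heart binds SRF and lowers its activity. It was at 341, 404 and 456 CPM in LC 15, LC 25 and LC 26 and at 169, 171 and 176 CPM in CMNKO mice. The CMNKO mice lay within a narrow range, and every LC mouse was far above it. Its log2 fold change was -1.22 ± 0.14 (SE, n = 3 per group), with an adjusted p of 0.00845 by edgeR's quasi-likelihood test. With the library series as a term it was -0.99 (adjusted p = 0.0158, edgeR), and without CMNKO 16 or CMNKO 17 the adjusted p was 0.0725 and 0.0598 at an unmoved difference of -1.21 in both, with 0 genes called over the whole table in either case. The next smallest p belonged to Elk3, an ETS partner of SRF, at 18.2 to 24.96 CPM in LC and 31.2 to 37.8 CPM in CMNKO mice (0.71 on the log2 scale, adjusted p = 0.0754 by edgeR and 0.0210 by DESeq2). Mef2a, which cooperates with the GATA factors, was at 141 to 154 CPM in LC and 107 to 110 CPM in CMNKO mice (-0.45, adjusted p = 0.0963, edgeR). Neither passed the test by edgeR, and both were named for their small p. With the library series as a term the differences were 0.47 for Elk3 and -0.37 for Mef2a. For both genes the groups did not overlap, as in 7 of the 21 cofactors and 23.6% of all genes.

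Srf and Hopx were next examined in the sequence before their start sites. The promoters of Srf, of the upstream Hopx start and of Acta1, a target of SRF, are shown because the results on the SRF axis turn on these genes and each held the CArG box. Hopx and Acta1 were picked for their change in level. They are from RefSeq on GRCm38.p6, 250 bases before to 50 bases after the start, and the match is in capitals.
Srf promoter (chr17:46556113-46556412, minus strand): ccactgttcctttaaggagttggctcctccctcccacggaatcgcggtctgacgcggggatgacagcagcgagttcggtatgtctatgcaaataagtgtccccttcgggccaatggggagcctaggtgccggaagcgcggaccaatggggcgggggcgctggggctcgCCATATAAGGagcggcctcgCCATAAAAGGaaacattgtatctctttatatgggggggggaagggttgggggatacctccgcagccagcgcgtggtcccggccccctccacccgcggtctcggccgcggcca
Hopx upstream promoter (chr5:77115074-77115373, minus strand): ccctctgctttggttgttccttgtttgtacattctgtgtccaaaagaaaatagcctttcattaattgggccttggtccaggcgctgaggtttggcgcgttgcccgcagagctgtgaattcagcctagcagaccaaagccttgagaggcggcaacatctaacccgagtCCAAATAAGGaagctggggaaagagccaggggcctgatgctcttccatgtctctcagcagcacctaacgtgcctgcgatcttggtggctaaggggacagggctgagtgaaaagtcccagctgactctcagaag
Acta1 promoter (chr8:123894726-123895025, minus strand): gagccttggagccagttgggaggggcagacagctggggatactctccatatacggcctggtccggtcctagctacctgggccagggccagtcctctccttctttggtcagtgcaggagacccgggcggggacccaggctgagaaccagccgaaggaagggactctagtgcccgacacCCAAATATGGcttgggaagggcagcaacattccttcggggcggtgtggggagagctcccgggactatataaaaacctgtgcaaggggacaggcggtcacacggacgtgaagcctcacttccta

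The CArG box was searched on both strands and was found in 1.63% of 32851 mouse promoters of this length. Srf held 2 matches, beginning 82 and 62 bases before its start, Acta1 held 1 at 73 bases and the upstream Hopx promoter 1 at 83 bases, while the other Hopx promoter held 0. Promoters with a CArG box were not limited to genes that changed. The share of 1.63% counts promoters, while the list counts are of genes, which can have more than 1 promoter, so the scales differ. Among the contractile targets 4 of 14 genes with a matched promoter held it in at least 1 (Acta1, Actc1, Myl9 and Vcl). Counted in the same way were 2 of 18 cofactors (Hopx and Fhl2) and 3 of 22 working myocardium targets (Ldb3, Myl3 and Nebl). Among the immediate early targets 1 of 6 genes held it (Egr2), and among the family relatives 0 of 15. Apart from Acta1 and Hopx, 0 of these genes passed the test, with log2 fold changes from -0.48 in Fhl2 to 0.66 in Myl9 among those tested. Promoters were matched for 5 of the 9 core factors, Hand2, Tbx20, Irx4, Nkx2-5 and Srf. AGATAA or TGATAA for GATA factors, found in 18.6% of promoters, occurred 2 times in that of Hand2, which also held 1 CAAGTG for NKX2-5 (13.6% of promoters). Those of Nkx2-5, Irx4 and Tbx20 held none of these motifs, none of AGGTGT for T-box factors (13.7%) and none of the MEF2 motif (0.557%). No match of a motif overlapped a match of another. A match is a description of letters and does not show binding, and a promoter that holds none says nothing about the factor.

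Of the 17 contractile targets of SRF and myocardin, 16 were tested, 2 rose, against 0.268% of all genes, and 0 fell, against 0.337%. The median log2 fold change was 0.64. Acta1, the skeletal α-actin of fetal and stressed myocardium, was at 161, 37.6 and 192 CPM in LC 15, LC 25 and LC 26 and at 661, 1386 and 811 CPM in CMNKO 16, 17 and 18. Every CMNKO mouse was above every LC mouse. The log2 fold change was 2.87 ± 0.48 (SE, n = 3 per group; adjusted p = 0.0279, edgeR). Acta2, the smooth muscle α-actin, was at 138, 70.5 and 172 CPM in LC and at 432, 391 and 698 CPM in CMNKO mice, again without overlap. Its log2 fold change was 2.00 ± 0.31 (SE, n = 3 per group; adjusted p = 0.0195, edgeR). Csrp1, a LIM protein of smooth muscle, was at 23.0 to 33.5 CPM in LC and 39.3 to 45.1 CPM in CMNKO mice (0.69 on the log2 scale, adjusted p = 0.0894, edgeR). Actc1, the cardiac α-actin, and Tagln, a calponin-related protein of smooth muscle, were picked for display after their values were seen. Actc1 was at 9789 to 13248 CPM in LC and 9732 to 11184 CPM in CMNKO mice with a difference of -0.12, and Tagln at 17.4 to 35.3 and 33.1 to 45.7 CPM with a difference of 0.62 (adjusted p = 0.192, edgeR), so that both overlapped. Of the 16 genes 11 had an unadjusted p under 0.05, against 18.9% of all genes.

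The calls and the median of this list differed between settings. With the library series as a term 0 were called, 3 had an unadjusted p under 0.05, against 7.57% of all genes, and the median was 0.14. Acta1 then stood at 2.56 (adjusted p = 0.250, edgeR) and Acta2 at 1.88 (adjusted p = 0.181, edgeR). Without any 1 of the CMNKO mice 0 were called and 6 to 12 had an unadjusted p under 0.05, in fits that called 0, 0 and 11 genes over the whole table. The differences stayed large there, at 2.50 to 3.07 in Acta1 and 1.70 to 2.15 in Acta2. Leaving out LC 15 gave 11 that rose and 1 that fell, of 17 tested, where 11.8% of all genes rose and 7.67% fell. The 4 markers of smooth muscle are all in this list, so their level is no separate measure. Their sum, over 4 of 4 of which 0 were at 0, was 115 to 219 CPM in LC and 462 to 800 CPM in CMNKO mice, and 1 of them, Acta2, passed the test. Without Acta2 the sum was 30.2 to 81.3 CPM in LC and 71.1 to 102 CPM in CMNKO mice and the groups overlapped. Endothelial markers (6 of 6) summed to 402 to 525 CPM in LC and 589 to 697 CPM in CMNKO mice, and pericyte markers (4 of 4) to 187 to 269 and 274 to 300 CPM. In both sums LC 15 was the highest LC mouse, at 525 and 269 CPM. LC 25 and LC 26 were at 407 and 402 CPM for endothelial and 192 and 187 CPM for pericyte markers. Fibroblast markers (6 of 6) summed to 415 to 530 CPM in LC and 472 to 758 CPM in CMNKO mice and macrophage markers (5 of 5) to 54.4 to 104 and 95.05 to 131 CPM, both with overlap. The 4 adipocyte markers summed to 0 to 0.156 CPM in LC and 0.251 to 4.45 CPM in CMNKO mice. The part of these cells in the results was not tested.

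**Figure D4:**
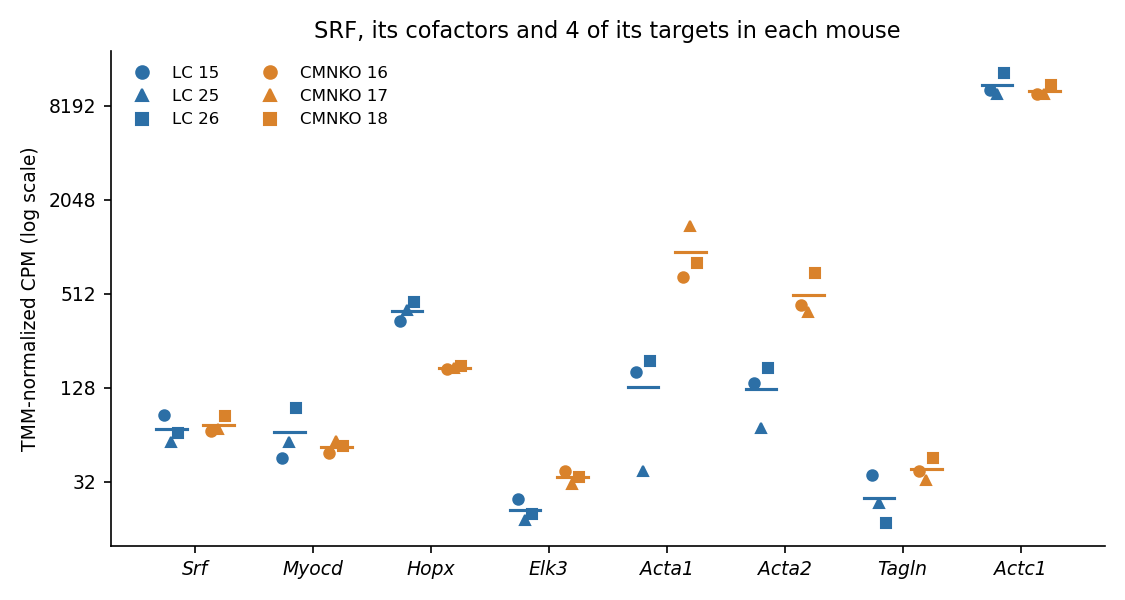
TMM-normalized CPM per mouse of Srf, its cofactors Myocd, Hopx and Elk3, and 4 contractile targets, on a log axis with a line at the mean of each group. Srf and Myocd overlapped between genotypes, Hopx was lower and Acta1 and Acta2 higher in every CMNKO mouse.

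The immediate early targets that SRF drives with ETS cofactors held 9 genes, of which 6 had enough reads. By edgeR 0 of the 6 were called and 4 had an unadjusted p under 0.05, against 18.9% of all genes. DESeq2 called 2 higher, against 1.69% of all genes, and limma-voom called 0. The median log2 fold change was 0.90. Junb, an AP-1 subunit, was at 4.21 to 5.95 CPM in LC and 8.67 to 11.04 CPM in CMNKO mice (0.97, adjusted p = 0.0698, edgeR). Ier2, a small nuclear response protein, was at 6.44 to 11.7 CPM and 13.2 to 15.9 CPM (0.83, adjusted p = 0.112, edgeR), and Egr1, a zinc-finger factor, at 3.41 to 9.33 CPM and 10.1 to 17.7 CPM (1.20, adjusted p = 0.132, edgeR). For the 3 genes, named for the smallest p, every CMNKO mouse was above every LC mouse. The groups did not overlap in 4 of the 6 genes tested, against 23.6% of all genes.

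Targets of the other core factors in working myocardium gave 0 calls of 25 by edgeR and a median of -0.17, with 10 genes at an unadjusted p under 0.05, against 18.9% of all genes. DESeq2 called 1 higher and 2 lower, against 1.69% and 1.13% of all genes, and limma-voom called 1 higher, against 0.345%. The median was -0.037 without LC 15, -0.047 without LC 26 and -0.053 when library totals alone were used. Nppa, the atrial natriuretic peptide and a target of GATA4, NKX2-5 and TBX5, was at 349 to 752 CPM in LC and 1006 to 1523 CPM in CMNKO mice (1.18, adjusted p = 0.0672, edgeR). Gja1, the connexin of ventricular gap junctions, was at 296 to 524 CPM in LC and 209 to 283 CPM in CMNKO mice (-0.81, adjusted p = 0.0953, edgeR). Tnnt2, cardiac troponin T, was at 8011 to 9469 CPM in LC and 5343 to 6256 CPM in CMNKO mice (-0.58, adjusted p = 0.0958, edgeR). The groups did not overlap in these 3 genes, which were named for the smallest p and lay on both sides of 0. Over the whole list the groups did not overlap in 10 of the 25, against 23.6% of all genes.

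Of 24 family relatives and chamber regulators, 16 were in the table and 14 were tested, with 0 calls by edgeR, 3 at an unadjusted p under 0.05, a share near the 18.9% of all genes, and a median of 0.20. The median was 0.049 with the series term and 0.082 without LC 25. DESeq2 and limma-voom also called 0. Prox1, a homeodomain factor needed for sarcomere assembly in the mouse, was at 36.0 to 43.7 CPM in LC and 24.5 to 32.0 CPM in CMNKO mice (-0.46, adjusted p = 0.153, edgeR). Heyl, a Notch target of vascular smooth muscle, was at 13.8 to 24.0 and 24.2 to 28.3 CPM (0.60, adjusted p = 0.166, edgeR), and Gata2, the GATA factor of endothelium and blood, at 10.1 to 13.1 and 13.1 to 16.9 CPM (0.42, adjusted p = 0.235, edgeR). The groups did not overlap in these 3 genes, named for the smallest p, by a narrow margin for Heyl and Gata2. With the library series as a term the differences were -0.32 for Prox1, 0.14 for Heyl and 0.21 for Gata2. Over the whole list the groups did not overlap in 4 of the 14 tested, against 23.6% of all genes.

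**Figure D5:**
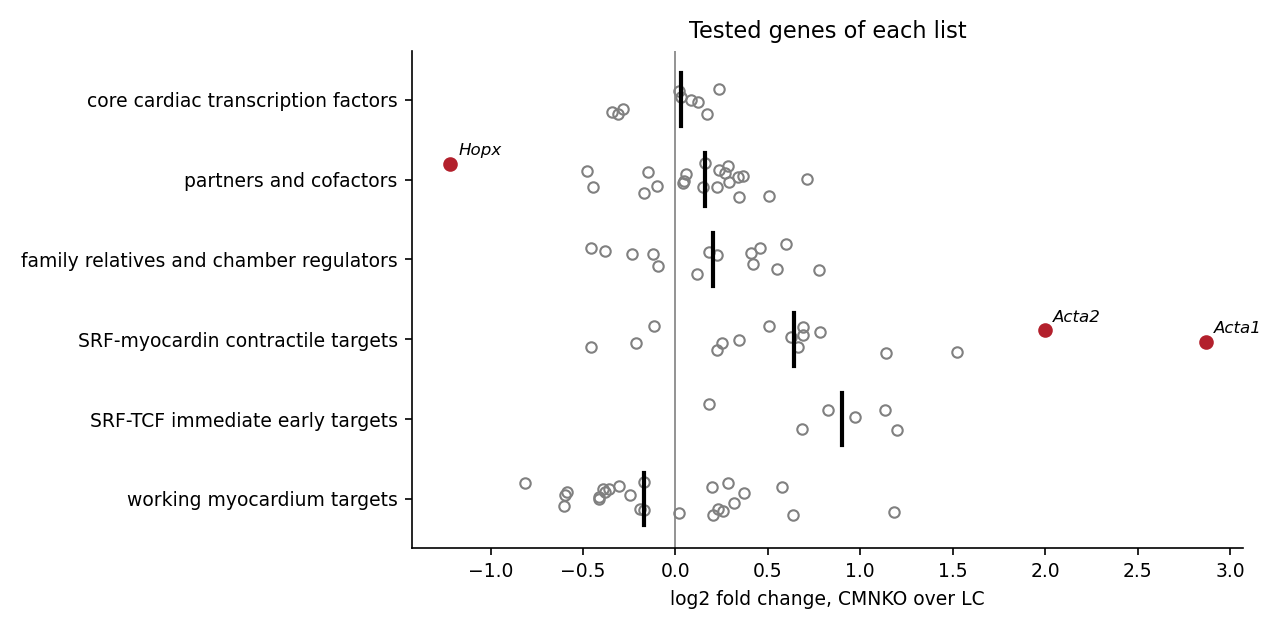
Log2 fold change of each tested gene of the core factors and of the 5 lists, CMNKO over LC, with the median of each list as a bar and genes with an adjusted p under 0.05 marked. The core factors (median 0.030) lay between -0.34 and 0.24, and the 2 SRF lists had medians of 0.64 and 0.90. With the library series as a term these 3 medians were -0.22, 0.14 and 1.45.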

How the data were processed

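The deposited table held whole-number counts of reads for each gene symbol in each mouse, not normalized, which the authors made from reads aligned to build mm8 according to the submitters' notes. Not given in the sources used here are the aligner, the counting step and its use of strand, so reads of a gene and of an antisense partner cannot be told apart. The deposited normalized group means (signal), log2 fold changes and FDR (q-value) columns hold the authors' own comparison and were not used. All per-sample columns were used (0 left out).

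The counts were fitted with edgeR 4.0.16 under R 4.3.3 (filterByExpr, TMM scaling, quasi-likelihood test, Benjamini-Hochberg adjustment over 13040 genes, threshold 0.05, genotype as the term). Log2 CPM used a prior count of 2 and ratios a pseudocount of 0.5. Alternatives were DESeq2 1.42.0, limma-voom (limma 3.58.1), other scalings and filters, the library series as a term, removal of mitochondrially encoded genes, and each mouse left out in turn. The script was tested on simulated data. Lengths came from GENCODE vM21 and promoters from RefSeq, both on GRCm38, matched by symbol. P-values measure the spread between 3 mice per genotype, and total counts of 6319488 to 8752609 limit precision.

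The core factors and lists were chosen with earlier results of these data known. Named beside the core factors are Ncor1, the 3 genes of each list with the smallest p, any other gene past the threshold, and the 3 genes most like the core factor with the smallest p. Outside this rule, Actc1, Tagln, genes listed for a CArG box and 3 untested immediate early genes were chosen after their values were seen.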

Additional observations from a re-analysis of the deposited data

How the results depend on the processing

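Over 14 alternatives for each of the 9 core factors, 106 of the values kept their direction and side of the threshold, 19 changed sign and 1, Tbx20 without LC 15 (-0.45), newly passed the test. Upper-quartile scaling turned Tbx5 (-0.0087) and Irx4 (-0.00082). The library series as a term turned Gata4 (-0.086), Nkx2-5 (-0.34), Tbx5 (-0.62), Srf (-0.22), Myocd (0.23) and Irx4 (-0.27), and moved the median of the 9 to -0.22. With each mouse left out in turn the ranges were 0.060 to 0.32 for Gata4, -0.46 to -0.024 for Gata6, -0.066 to 0.43 for Nkx2-5, 0.14 to 0.35 for Hand2, -0.22 to 0.47 for Tbx5, -0.035 to 0.26 for Srf, -0.52 to 0.052 for Myocd, -0.18 to 0.20 for Irx4, -0.035 to 0.25 for the log2 ratio of Nkx2-5 to Irx4 and -0.066 to 0.26 for the median. The number of core factors called was 1 without LC 15 and otherwise 0. The cause was not tested.

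Over all genes 79 were called, against 128 under upper-quartile scaling, 44 when library totals alone were used (54.5% higher against 44.3%, the median of all genes being 0.12), 367 by DESeq2 (59.9% higher) and 22 with the library series as a term (9.09% higher). Leaving out mice gave 0 to 2624 calls, the highest without LC 15, 36 without LC 25, 25 without LC 26, 11 without CMNKO 18 and 0 without CMNKO 16 or CMNKO 17, where the unadjusted p of edgeR was under 0.05 for 1829 and 1675 genes. Ncor1 lost its call without CMNKO 16, 17 or 18 (adjusted p 0.0862, 0.0759 and 0.0536, edgeR), at differences of -0.99 to -1.12. No paired analysis was made because the labels do not say which LC and CMNKO mice shared a litter. Coding length in place of transcript length was chosen after seeing the data.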

Other observations

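Of the 9 immediate early targets of SRF, 3 had too few reads to be tested. Egr3, a zinc-finger factor, was at 0.161 to 0.524 CPM in LC and 1.13 to 1.67 CPM in CMNKO mice. Egr2, its relative, was at 0 to 0.393 CPM in LC and 0.628 to 1.26 CPM in CMNKO mice, and Fosb, an AP-1 subunit, at 0.131 to 0.644 and 0.556 to 1.12 CPM. Egr3 and Egr2 did not overlap between genotypes, while Fosb did. Among genes with enough reads to be tested, the groups did not overlap in 23.6%.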
